A study of Mus musculus with 12 samples.

Results

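Guanylate-binding proteins (GBPs) are described here through the mRNA of 8 genes, Gbp2 to Gbp9, in RAW264.7 cells, an established mouse macrophage line from a BALB/c background. The members were chosen by gene symbol, though with earlier results of these data known, and they are 8 of the 38215 genes in the deposited table of counts. The 12 libraries came from 3 replicates of each of 4 groups. Cells received nontargeting control siRNA or siRNA against SF3a1, a subunit of the SF3a complex of the spliceosome, and 24 hours later either no LPS or 20 ng/ml LPS for 4 hours. LPS is the Gram-negative bacterial outer membrane lipid sensed by TLR4. All groups went through siRNA transfection, so no group shows cells that were never transfected. Only 1 cell line was used, and the siRNA is a transient knockdown and not a deletion. Each siRNA treatment and LPS exposure was carried out 3 times, whether on separate days or from separate passages is not given in the sources used here, and p-values measure the spread between these samples.

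GBPs are large GTPases of the dynamin superfamily that interferons induce in many cell types. They coat the vacuoles of intracellular parasites and bacteria, help to break them open, and on cytosolic Gram-negative bacteria they promote sensing of LPS by caspase-11, the product of Casp4. In macrophages, LPS reaches GBP genes mainly through a relay: TLR4 signals through TRIF and IRF3 to interferon beta, which is secreted and acts back through its receptor, JAK1, TYK2, STAT2 and IRF9. The DNA element bound at the end of this relay is the interferon-stimulated response element (ISRE), and interferon gamma acts mainly through another, the gamma-activated site (GAS).

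The family lies in 2 clusters. In GENCODE vM21 (mm10), Gbp5 (chr3:142493978-142522344), Gbp7 (chr3:142530342-142550149), Gbp3 (chr3:142560026-142573209), Gbp2b (chr3:142594847-142619179) and Gbp2 (chr3:142620602-142638008) follow each other on the plus strand of chromosome 3. On the minus strand of chromosome 5 are Gbp8 (chr5:105014150-105139540), Gbp9 (chr5:105077630-105139539), Gbp4 (chr5:105115767-105139586), Gbp10 (chr5:105215699-105239533), Gbp6 (chr5:105270702-105293698) and Gbp11 (chr5:105323042-105346472). Gbp2b, Gbp10 and Gbp11 are not members but stand in the same table, and they are given for comparison. Of the 11 gene identifiers, 4 are absent from vM21 or carry another name there. They are those of Gbp5 (ENSMUSG00000040264), Gbp6 (ENSMUSG00000079362), Gbp2b (ENSMUSG00000028269) and Gbp10 (ENSMUSG00000054588), whose symbols were taken from the study's own tables, and the values for these 4 genes rest on that naming. In vM21 the first of these identifiers carries the name Gbp2b, and the second is a read-through gene over Gbp10 and Gbp6.

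Sequence from around the RefSeq start of the chromosome 3 genes is shown because these genes rose together with LPS and each holds an ISRE-like match there. RefSeq promoter sequence (GRCm38.p6, 250 bases before to 50 after the start) was at hand for Gbp2, Gbp3, Gbp5, Gbp7 and Gbp2b, while Gbp4, Gbp6, Gbp8 and Gbp9 were not in that table. The letters searched were GAAA, any 2 bases and GAAA again, the core of an ISRE, on both strands. The match reads TTTC, any 2 bases and TTTC on the strand printed here and is in capitals in these 30-base stretches, given 5′ to 3′ on the plus strand.
Gbp2: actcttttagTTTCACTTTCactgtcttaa
Gbp3: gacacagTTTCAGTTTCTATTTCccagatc
Gbp5: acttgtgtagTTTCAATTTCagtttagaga
Gbp7: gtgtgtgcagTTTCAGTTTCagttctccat
Gbp2b: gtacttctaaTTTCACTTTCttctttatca
The Gbp2 stretch lies at chr3:142620594-142620623 and its match begins 59 bases before the RefSeq start. In Gbp3 (chr3:142559992-142560021) there are 2 overlapping matches, the first of which begins 45 bases before the start. The match begins 165 bases before the start in Gbp5 (chr3:142496759-142496788) and 53 bases before it in Gbp7 (chr3:142530273-142530302). The Gbp2b stretch lies at chr3:142594700-142594729. The RefSeq starts of Gbp2 and Gbp5 lie downstream of those in vM21, so that by vM21 the Gbp2 match falls in the first annotated exon and the Gbp5 stretch inside the gene. Gbp3 has a further RefSeq promoter, which holds no match. Among all 32851 RefSeq promoters of this length, 3.44% hold the ISRE core. The GAS letters TTCNNNGAA, also searched on both strands, had 2 matches in the Gbp5 promoter and 2 in the Gbp7 promoter and none in those of Gbp2, Gbp3 or Gbp2b, against 8.3% of all promoters with at least 1. A match is a description of the letters and does not show that a factor binds there.

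Only uniquely mapping reads were counted, and this bears unequally on the members. Of the 60-base words in a representative transcript, 98.4% occur nowhere else in the transcriptome for Gbp2, 96.1% for Gbp3, 99.2% for Gbp5 and 98.2% for Gbp7. Among the chromosome 5 genes the share was 91.0% for Gbp4, 83.6% for Gbp8 and 92.0% for Gbp9, but 35.3% for Gbp6, which shares 57.6% of its words with Gbp10. Gbp4, Gbp8 and Gbp9 are annotated as overlapping, and reads that fit more than 1 of them were left out by the counting. The chromosome 3 members are therefore counted nearly in full, whereas counts of Gbp6 are uncertain and those of Gbp4, Gbp8 and Gbp9 are low by an unknown amount. Whether counting used strand is not given in the sources used here.

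Libraries held 12746019 to 41091887 counts on genes. The knockdown was visible in every library. Sf3a1 was at 173, 216 and 185 CPM (counts scaled to the library's size after TMM normalization) with control siRNA without LPS and at 150, 194 and 157 CPM with LPS. With SF3a1 siRNA it was at 27.1, 27.5 and 32.1 CPM without LPS and at 30.3, 26.7 and 45 CPM with LPS. The siRNA groups did not overlap, and the log2 fold change was -2.73 ± 0.20 (SE, n = 3 per group, edgeR adjusted p = 1.137e-05) without LPS and -2.30 ± 0.20 (adjusted p = 1.474e-05) with LPS. Macrophage identity was checked with 10 markers, all of which passed the filter. Lyz2 (lysozyme), the most abundant of them, was at 5430 ± 611 CPM (SD, n = 3) in the group where its mean was lowest, control siRNA without LPS, and at 7527 ± 746 CPM in the group where it was highest, SF3a1 siRNA without LPS.

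Replicate 1 of each group was sequenced in 2 runs and was the deepest library of its group, and some genes differed between it and the other replicates. Ifnb1, which encodes interferon beta, was at 4.92 CPM in replicate 1 of control siRNA with LPS but at 27.5 and 26 CPM in replicates 2 and 3. Irf1 was also lowest in replicate 1, at 108, 242 and 275 CPM, whereas Irf7 was highest in replicate 1 at 1743 CPM against 817 and 979 CPM. The main counts were therefore also computed without replicate 1 of every group, a choice made after seeing the data.

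Without LPS, GBP mRNA was close to the limit of detection. Summed over the 8 members, control siRNA libraries held 1.51, 4.16 and 2.81 CPM (66, 93 and 66 counts) and SF3a1 siRNA libraries 2.30, 1.84 and 1.49 CPM (63, 33 and 20 counts). Gbp7 and Gbp3 made up most of these counts. Gbp7 gave 35% ± 5.13 (SD, n = 3) of the members' counts with control siRNA and Gbp3 gave 25.8% ± 10.6. All 8 members passed the filter on low counts, which asked for 0.477 CPM in at least 3 libraries, but without LPS only Gbp3 and Gbp7 reached that level in 3 or more of the libraries. The other 6 passed through the libraries with LPS, and for them a rise with LPS was thus built into their being tested. Gbp4 and Gbp8 passed only through control siRNA with LPS, so that for these 2 genes a fall against that group was built in as well.

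With control siRNA, LPS raised all 8 members, from traces to between 0.774 and 281 CPM. Gbp3 and Gbp2 were the most abundant by read count, Gbp5 rose by the largest fold, and the chromosome 5 genes stayed low. Across all 14983 genes tested, 13.8% were called higher in this comparison, at an adjusted p of 0.1 or less. In none of the 8 did the 2 groups overlap, which was true in this direction of 17.2% of all genes tested. The median log2 fold change was 7.38 for the members and -0.02 for all genes.

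**Figure D1:**
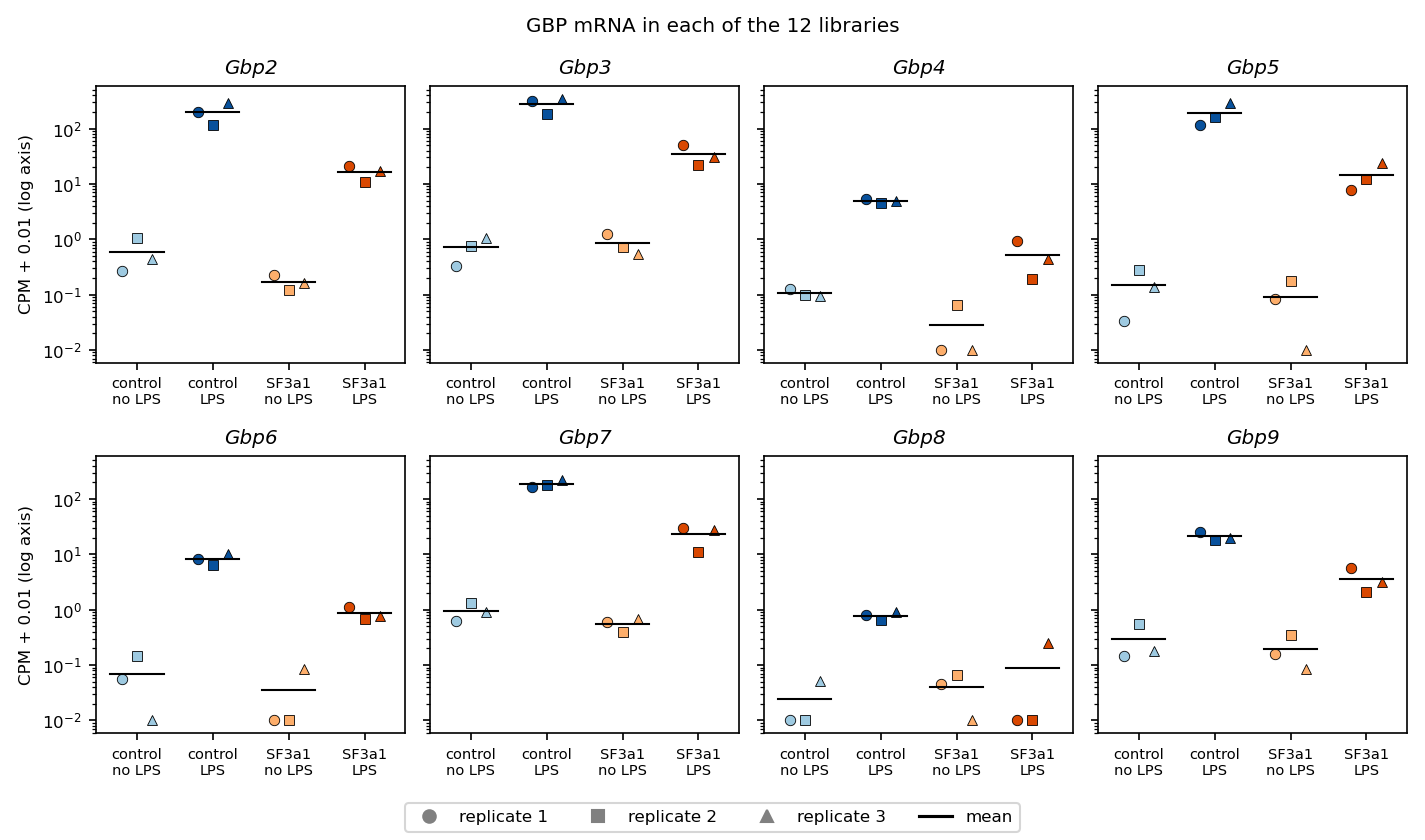
Each panel shows 1 GBP gene, with CPM plus 0.01 on a log axis for the 3 libraries of each of the 4 groups (circles, squares and triangles for replicates 1, 2 and 3, lines for means). Libraries of control siRNA with LPS stand above all others in every panel, and SF3a1 siRNA with LPS lies between them and the groups without LPS, except for Gbp8, where 2 of its 3 libraries are at 0.

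Gbp2 takes part in coating and lysing pathogen vacuoles and in exposing cytosolic bacterial DNA and LPS, and carries a C-terminal site for prenylation. It was at 0.252, 1.03 and 0.426 CPM with control siRNA without LPS and at 202, 115 and 284 CPM with LPS. The groups did not overlap, replicate 2 was the lowest library with LPS and the highest without, and the log2 fold change was 8.57 ± 0.53 (SE, adjusted p = 1.704e-07).

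Gbp3, the member with the most counts, went from 0.321, 0.76 and 1.06 CPM to 311, 183 and 348 CPM. Replicate 2 was the lowest of the LPS libraries, as it was for Gbp2. The log2 fold change was 8.71 ± 0.52 (adjusted p = 1.418e-07).

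Gbp5, a prenylated GBP linked to the NLRP3 inflammasome, had 1, 6 and 3 counts without LPS and 4412, 2049 and 5147 with LPS. In CPM it was at 116, 163 and 289 with LPS, and here replicate 1 was the lowest of the 3. Its log2 fold change of 10.61 ± 0.72 (adjusted p = 3.493e-07) ranked 14th from the highest of all genes tested, and it was 9.89 without replicate 1 and 11.48 without replicate 2 of control siRNA without LPS.

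Gbp7, reported to help macrophages restrict bacteria together with Gbp2b, Gbp6 and Gbp10, was at 0.619, 1.34 and 0.894 CPM without LPS and at 162, 182 and 223 CPM with LPS. Its libraries with LPS lay closer together than those of the other abundant members, at 189 ± 30.9 CPM (SD, n = 3) against 200 ± 84.2 CPM for Gbp2 and 189 ± 89.3 CPM for Gbp5. The log2 fold change was 7.68 ± 0.43 (adjusted p = 7.775e-08).

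On chromosome 5, Gbp9 rose from 0.138, 0.536 and 0.17 CPM to 25.8, 18 and 19.7 CPM (log2 fold change 6.32 ± 0.54, adjusted p = 2.682e-06). Gbp6 rose to 8.29, 6.52 and 10.3 CPM from 5 counts over the 3 libraries without LPS (7.08 ± 0.62, adjusted p = 2.955e-06). Gbp4 rose to 5.37, 4.45 and 4.82 CPM from 9 counts (5.55 ± 0.58, adjusted p = 1.432e-05). These are the less abundant members, and the fold changes of the rarest depend on a few counts. Gbp8 was at 0.789, 0.636 and 0.898 CPM with LPS, from 54 counts against 1 without, a ratio of 70.6 with a 95% interval of 12.2 to 2840 that covers counting error only. Its fitted log2 fold change was 5.56 ± 1.22 (adjusted p = 0.002382).

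Levels can be compared between genes only per length. Per kilobase of unique 60-base words, the control siRNA group with LPS held 111 ± 34.3 CPM of Gbp3 (SD, n = 3), 82.8 ± 34.8 of Gbp2, 63.7 ± 30.1 of Gbp5 and 34.6 ± 5.67 of Gbp7. Next came Gbp6 at 9.32 ± 2.12, Gbp9 at 5.33 ± 1.03, Gbp4 at 1.20 ± 0.11 and Gbp8 at 0.386 ± 0.0656. The ranges of Gbp3, Gbp2, Gbp5 and Gbp7 each overlapped that of the next, whereas from Gbp7 downwards no gene overlapped the next. Within a library, Gbp3 stood above Gbp2 and Gbp5 above Gbp7 in 3 of 3, and Gbp2 above Gbp5 in 2 of 3. Every library of the 4 chromosome 3 members lay above every library of the 4 chromosome 5 members on this per-length scale. How much of that gap comes from ambiguous reads at Gbp4, Gbp8 and Gbp9 was not tested. For Gbp5 and Gbp6 the counts and the unique words belong to different gene identifiers. Their per-length values and places in this order are therefore uncertain, the more so for Gbp6, whose identifier is a read-through gene in vM21.

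**Figure D2:**
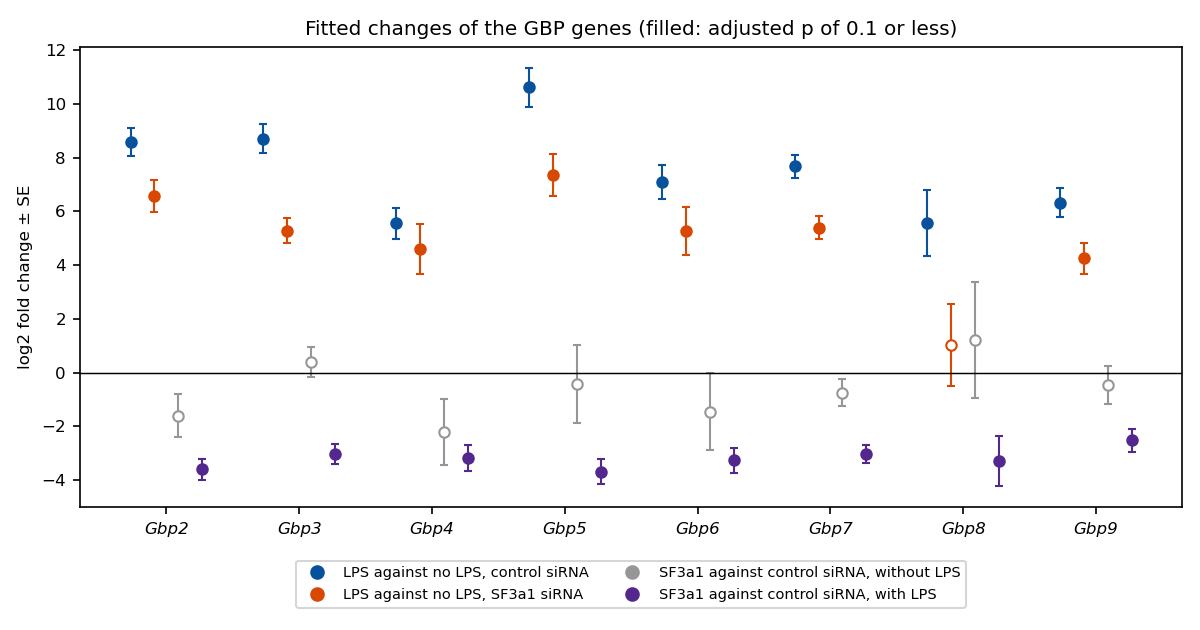
Fitted log2 fold changes with their SE (vertical axis) for each GBP gene in 4 comparisons, filled where the adjusted p was 0.1 or less. LPS changes with control siRNA run from 5.55 to 10.61, SF3a1 changes with LPS from -3.69 to -2.53, and SF3a1 changes without LPS are all open symbols.

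SF3a1 inhibition in the presence of LPS lowered all 8 members. Of these, Gbp4 and Gbp8 were tested only because of their level in the control group, so that the count of 8 and the median are partly fixed by the filter. The group means of the 8 members were 7.79 to 17.1% of those with control siRNA and LPS. No member's libraries overlapped between the 2 groups. Across all genes tested, 38.8% were called in either direction and 20.4% lower in this comparison, and 21.1% had groups that did not overlap in this direction. The median log2 fold change was -3.22 for the members and -0.04 for all genes. In a bulk sample, fewer responding cells and less RNA per cell cannot be told apart.

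With LPS, Gbp2 fell from 202, 115 and 284 CPM with control siRNA to 21, 10.7 and 17.4 CPM with SF3a1 siRNA. Every control library stood above every SF3a1 siRNA library, and the log2 fold change was -3.61 ± 0.40 (adjusted p = 5.824e-05). Gbp5 fell to 7.81, 12.2 and 24.3 CPM, with replicate 3 the highest in both siRNA groups (-3.69 ± 0.47, adjusted p = 0.0001369). By group means Gbp2 and Gbp5 kept the least of the members, 8.17 and 7.79% of the control mean. The order did not hold within every replicate number. In replicate 2 Gbp4 kept 4.07% and Gbp7 6.14%, against 9.29% for Gbp2 and 7.46% for Gbp5.

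Gbp3 fell to 50.8, 21.6 and 30.4 CPM (-3.03 ± 0.38, adjusted p = 0.0001355) and Gbp7 to 29.9, 11.2 and 27.8 CPM (-3.03 ± 0.33, adjusted p = 5.824e-05). Each kept 12.2% of its control mean. For both genes replicate 2 was the lowest SF3a1 siRNA library.

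Gbp9 was at 5.57, 2.12 and 3.18 CPM with SF3a1 siRNA and LPS and kept 17.1%, the most of any member (-2.53 ± 0.42, adjusted p = 0.0007712). Gbp6 was at 1.12, 0.665 and 0.77 CPM (-3.27 ± 0.46, adjusted p = 0.0002426) and Gbp4 at 0.908, 0.181 and 0.433 CPM (-3.17 ± 0.48, adjusted p = 0.00043). Gbp8 had 0, 0 and 5 counts against 30, 8 and 16 with control siRNA (-3.30 ± 0.93, adjusted p = 0.01495), a value that, like that of Gbp4, supports nothing on its own given how the gene passed the filter. The log2 fold changes of abundant and rare members thus lay within -3.69 to -2.53, with SEs of 0.33 to 0.93. No test of a difference between members was made.

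**Figure D3:**
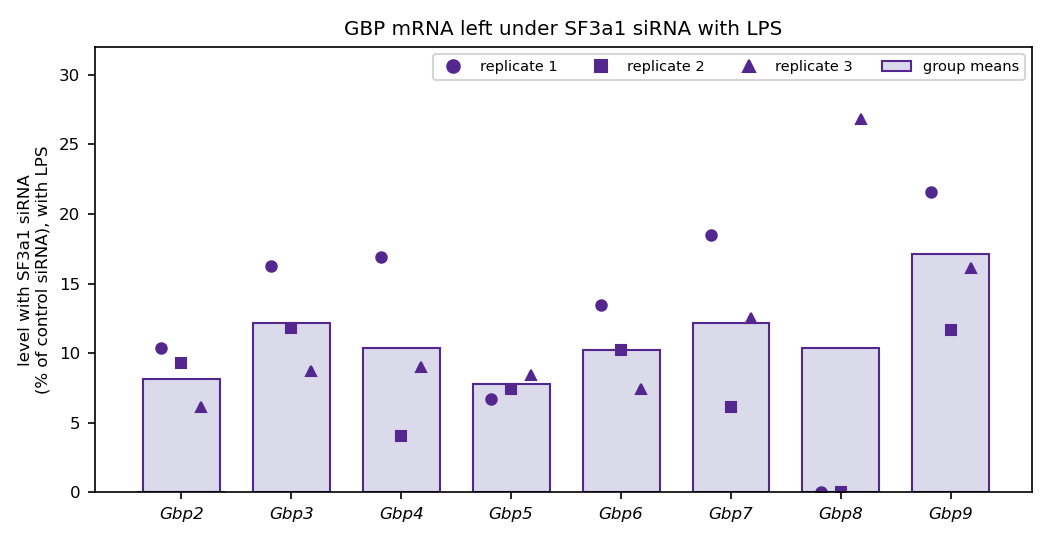
Level of each GBP gene with SF3a1 siRNA and LPS as a percentage of control siRNA with LPS, as bars for the ratio of group means and points for the ratio within each replicate number. Bars lie between 7.79 and 17.1%, and the widest scatter is that of Gbp8, whose points rest on 0, 0 and 5 counts.

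The 8 genes sat together at the low end of the distribution of all genes. By fold change, Gbp5 was the 28th and Gbp9 the 187th from the lowest of 14983. Without replicate 1 of every group, all 8 members were again called lower, with log2 fold changes of -3.84 for Gbp4 to -2.50 for Gbp8. Gbp4 and Gbp8, the ends of this range, had passed the main filter only through control siRNA with LPS. Their fall was thus built in and adds nothing to the count.

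**Figure D4:**
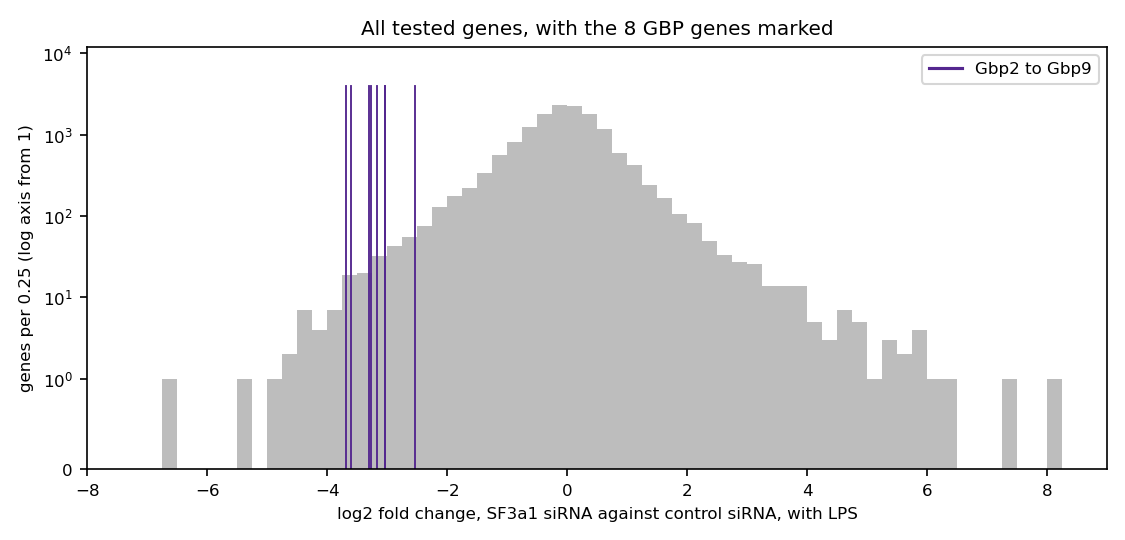
Number of genes per 0.25 units of log2 fold change (log vertical axis from 1) for SF3a1 siRNA against control siRNA with LPS, with lines at the 8 GBP genes. The members lie between -3.69 and -2.53, at the lower tail of the 14983 genes.

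Without LPS, SF3a1 inhibition moved no member past the threshold. edgeR called 0 of 8, 0 of 8 had an unadjusted p under 0.05, and DESeq2 called 1, Gbp2. Across all genes tested, 33.8% were called in either direction and 20.1% as lower. Gbp2 was at 0.252, 1.03 and 0.426 CPM with control siRNA and at 0.219, 0.112 and 0.149 CPM with SF3a1 siRNA, groups that did not overlap but rest on 44 and 10 counts. Of the members, only Gbp2 and Gbp4 had groups that did not overlap, both lower, against 25.4% of all genes lower and 20.2% higher. Its log2 fold change was -1.60 ± 0.79 (edgeR adjusted p = 0.1518; DESeq2 adjusted p = 0.0475). Gbp4 gave -2.22 ± 1.22 from 9 counts against 1, a count ratio of 0.169 with a 95% interval of 0.00386 to 1.22. Gbp7, the best counted here, gave -0.74 ± 0.50 from 78 and 32 counts (adjusted p = 0.3034), and Gbp3 0.40 ± 0.56 from 56 and 54 counts (adjusted p = 0.6552). Gbp5, Gbp6, Gbp8 and Gbp9 had at most 22 counts in either group and log2 fold changes of -1.45 to 1.22, which ran from -3.62 (Gbp6) to 2.94 (Gbp8) when replicate 3 of either siRNA group without LPS was left out.

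LPS still acted on the family after SF3a1 inhibition. Of the 8 members 7 rose, where 6.6% of all genes tested were called higher and 4.06% lower. The groups of all members but Gbp8 did not overlap, as was the case upwards for 13.3% of all genes. When the replicate number was a block, 7 members were also called, while the count of all genes called went from 1598 to 3115. Gbp5 rose by 7.35 ± 0.77 on the log2 scale (adjusted p = 4.788e-05), Gbp2 by 6.56 ± 0.59 (adjusted p = 1.387e-05), Gbp7 by 5.39 ± 0.43 (adjusted p = 5.669e-06) and Gbp3 by 5.28 ± 0.48 (adjusted p = 1.459e-05). The rarer members had larger SEs or lower values. For Gbp9 the rise was 4.25 ± 0.58 (adjusted p = 0.000406), for Gbp6 5.27 ± 0.90 (adjusted p = 0.001549) and for Gbp4 4.60 ± 0.94 (adjusted p = 0.005206). Both Gbp6 and Gbp4 had 1 count in their 3 libraries with SF3a1 siRNA without LPS, with count ratios of 53.5 (95% interval 9.27 to 2150) and 35.1 (5.97 to 1420). Gbp8 gave 1.03 ± 1.53 (adjusted p = 0.8057) from 5 counts against 2, a count ratio of 2.09 with an interval of 0.342 to 21.9.

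Whether the SF3a1 effect differs between LPS and no LPS was tested directly as the interaction, in which 3.47% of all genes were called, 1.54% with a positive and 1.94% with a negative value. With the replicate block 1756 genes were called, against 520 without it. Its value is the log2 change with LPS minus that without. Gbp3 gave -3.43 ± 0.67 (adjusted p = 0.02318) and Gbp7 -2.29 ± 0.61 (adjusted p = 0.08274), and the other 6 members, all with negative values, did not pass. With the replicate block Gbp5 also passed (-3.37, adjusted p = 0.0867). The call of Gbp7 was lost when either of replicates 1 and 3 of control siRNA without LPS, replicates 2 and 3 of control siRNA with LPS, any SF3a1 siRNA library without LPS or replicate 3 of SF3a1 siRNA with LPS was left out (adjusted p of 0.102 to 0.217), and that of Gbp3 when replicate 1 of SF3a1 siRNA without LPS was left out (-2.96, adjusted p = 0.113). Without replicate 1 of every group Gbp3 passed (-2.83, adjusted p = 0.0458) and Gbp7 did not (-2.26, adjusted p = 0.203). Gbp3 and Gbp7 are also the members with the most counts without LPS, and the part this plays in their being the ones called was not tested. These 5 comparisons share libraries, so their values for a gene are not independent of each other.

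Gbp3 had the largest mean share of the members' counts in both groups with LPS. With control siRNA and LPS, Gbp3 made up 31.4% ± 5.34 (SD, n = 3) of them, Gbp2 21.8% ± 4.09, Gbp7 21.8% ± 4.57 and Gbp5 20.9% ± 6.0. With SF3a1 siRNA and LPS the shares were 36.5% ± 7.15, 17.6% ± 0.87, 23.7% ± 4.07 and 16.9% ± 8.93 in the same order. For all 8 members the libraries of the 2 groups overlapped in these shares. By replicate number, Gbp5 had a lower share with SF3a1 siRNA in 3 of 3 pairs (6.67, 20.7 and 23.2% against 14, 24.2 and 24.5%) and Gbp9 a higher one in 3 of 3 (4.76, 3.61 and 3.04% against 3.11, 2.68 and 1.67%). The other members went both ways. With only 3 pairs, some of 8 genes can fall on the same side in all of them by chance. The shares also depend on each other, as they are parts of 1 total. No test of the shares was made.

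The other GBP genes in the table also had fewer counts with SF3a1 siRNA in the presence of LPS. Gbp2b, on chromosome 3 between Gbp3 and Gbp2, was at 118, 91.3 and 242 CPM with control siRNA and LPS, against 0.367, 0.134 and 0.596 CPM without LPS. It was at 12.3, 6.95 and 14.6 CPM with SF3a1 siRNA and LPS, with no overlap between groups in either contrast, and the log2 fold changes were 8.66 ± 0.54 with LPS (adjusted p = 1.849e-07) and -3.73 ± 0.40 with SF3a1 siRNA (adjusted p = 5.346e-05). Gbp10, of which 30.2% of words are unique, had 112, 31 and 100 counts with control siRNA and LPS and 5, 3 and 12 with SF3a1 siRNA and LPS (-3.61 ± 0.60, adjusted p = 0.001181). Like Gbp4 and Gbp8, Gbp10 passed the filter only through control siRNA with LPS, so that its rise and its fall were built in. Gbp2b passed through libraries with LPS, so that its rise with LPS was built in. Gbp11, a polymorphic pseudogene in vM21, did not pass the filter and had 60 counts with control siRNA and LPS and 4 with SF3a1 siRNA and LPS.

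The exon bins gave no sign of a change in the make-up of GBP transcripts that passed the test. Bins are the non-overlapping pieces of a gene's annotated exons, and relative use compares a bin with the rest of its gene. Introns outside annotated exons have no bin, so their retention, which the paper reports for other genes after SF3a1 inhibition, was not tested here. The members fell into 6 units of 108 bins, with Gbp4, Gbp8 and Gbp9 joined in 1 unit, and 69 bins were tested in 11 libraries. With diffSpliceDGE 0 of the 69 were called in any of 4 comparisons, and limma's diffSplice also called 0. Of all bins tested, 0.0801% were called for LPS with control siRNA, 0.626% for SF3a1 inhibition without LPS, 0.492% with LPS and 0.0254% for LPS after SF3a1 inhibition. Bins with an unadjusted p under 0.05 were 2 for LPS with control siRNA, 3 for SF3a1 inhibition without LPS, 1 with LPS and 0 for LPS after SF3a1 inhibition. Among all genes with tested bins, 6.16% had a called bin for SF3a1 inhibition without LPS and 5.03% with LPS (653 and 534 genes, or 1217 and 1102 with the replicate block). For LPS the shares were 0.462% with control siRNA and 0.104% with SF3a1 siRNA (49 and 11 genes, or 129 and 35 with the block).

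In the LPS groups, Gbp2, Gbp3, Gbp5 and Gbp7 each held at least 8085 bin counts with control siRNA and 1171 with SF3a1 siRNA. Coverage was lower for Gbp6 (575 and 90 counts) and for the joined unit of Gbp4, Gbp8 and Gbp9 (1926 and 418). The largest difference in a tested bin's mean share of its gene's bin counts was 2.38 percentage points for Gbp2, 2.43 for Gbp3, 4.87 for Gbp5 and 5.44 for Gbp7. Gbp2 bin 5 took 3.15 and 1.41% of Gbp2 bin counts with control siRNA and LPS and 2.95, 1.79 and 2.49% with SF3a1 siRNA and LPS. If the counted bins are those of vM21, which was not checked, this bin is the first 40 bases of an annotated exon (chr3:142625513-142625552). For LPS with control siRNA, this bin had the smallest unadjusted p of the members' bins (0.005653 by diffSpliceDGE). Its log2 relative change there was -2.82, and it was not called. The largest difference, 8.21 points, was in Gbp6 bin 9 (unadjusted p = 0.03106), with 64 and 6 counts in the control libraries and 2, 0 and 0 in the SF3a1 libraries. For Gbp7 bin 2 the unadjusted p was 0.01482 without LPS (adjusted p = 0.8168), from 0 counts with control siRNA and 4 with SF3a1 siRNA. Its position is uncertain, since vM21 would make it 18 bases long, whereas bin 3, of 196 bases there, was not among the tested bins. Without LPS the units held only 6 (Gbp6) to 86 (Gbp7) bin counts over the 3 control siRNA libraries. The tests there rest on few counts, and what change in bin use could be detected at this depth was not tested.

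Genes around the relay that leads to GBP transcription were followed in a list of 24, of which 23 passed the filter. The list also holds genes that are not steps of the relay as described above, among them Socs1, Socs3, Usp18, Irf7 and Batf2. Its counts and medians are therefore not those of the relay alone. With LPS and control siRNA 16 rose and 3 fell (median log2 fold change 1.57, against -0.02 for all genes). With the replicate block Tlr4 fell too (-0.64). Across all genes tested, 13.8% were called higher and 18.3% lower with LPS. Ifnb1, among those that rose, passed the filter only through libraries with LPS, so that its rise was built in. After SF3a1 inhibition with LPS, 14 were lower and 3 higher (median -0.90, against -0.04), or 16 and 3 with the replicate block. Without the block, 20.4% of all genes were called lower and 18.4% higher there. Receptors and proximal adaptors came first. Tlr4, the LPS receptor, was at 33.6 CPM with control siRNA and 25.5 CPM with SF3a1 siRNA in the presence of LPS (-0.40, adjusted p = 0.383), and Ticam1, which encodes TRIF, gave -0.52 (adjusted p = 0.244). Both were called lower with the replicate block (Tlr4 -0.43, adjusted p = 0.0455; Ticam1 -0.45, adjusted p = 0.0406). Irf3 fell by 0.55 (adjusted p = 0.00298). Ifnar1 gave 0.19 (adjusted p = 0.354) and Ifnar2 0.15 (adjusted p = 0.41), while Ifngr1 rose by 1.02 (adjusted p = 0.000662) and Ifngr2 by 0.78 (adjusted p = 0.000856). Jak1, a kinase of both receptors, rose by 0.39 (adjusted p = 0.0641).

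Ifnb1 was at 4.92, 27.5 and 26 CPM with control siRNA and LPS and at 0.636, 5.02 and 3.66 CPM with SF3a1 siRNA and LPS. In both groups replicate 1 was the lowest, and the groups overlapped by a narrow margin (-2.67, adjusted p = 0.0186). Ifng, the gene of interferon gamma, was at 0.0202 CPM or less in the mean of each group and was not tested. Tyk2 fell by 1.73 (adjusted p = 0.000856) and Stat2 by 2.20 (adjusted p = 5.19e-06), whereas Irf9 gave -0.18 (adjusted p = 0.403).

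Other transcription factors in the list were lower with SF3a1 siRNA and LPS. Irf1 fell by 2.42 (adjusted p = 0.000189), Irf7 by 2.44 (adjusted p = 0.00114), Irf8 by 2.26 (adjusted p = 0.000309) and Batf2 by 3.57 (adjusted p = 7.51e-06). Batf2 was at 43.5, 62.5 and 67.5 CPM with control siRNA and LPS and at 4.00, 5.50 and 5.15 CPM with SF3a1 siRNA and LPS, a change within the range of the 8 GBP genes. Without LPS, SF3a1 inhibition lowered 8 and raised 3 of the 23, where 20.1% of all genes were called lower and 13.7% higher. Among those called were Irf8 (-1.39, adjusted p = 0.00649), Ticam2 (-1.37, adjusted p = 0.00024), Stat2 (-0.80, adjusted p = 0.00209) and Ifngr2 (0.94, adjusted p = 0.0003). After SF3a1 inhibition LPS raised 12 and lowered 0 of the 23 by edgeR, and in the interaction 6 were lower and 1, Ticam2, was higher. Across all genes tested, 6.6% were called higher and 4.06% lower by LPS after SF3a1 inhibition. For the interaction the shares were 1.94% lower and 1.54% higher. Under the replicate block the interaction called 12 lower and 3 higher, LPS after SF3a1 inhibition raised 15 and lowered 1, and SF3a1 inhibition without LPS raised 5 and lowered 8.

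**Figure D5:**
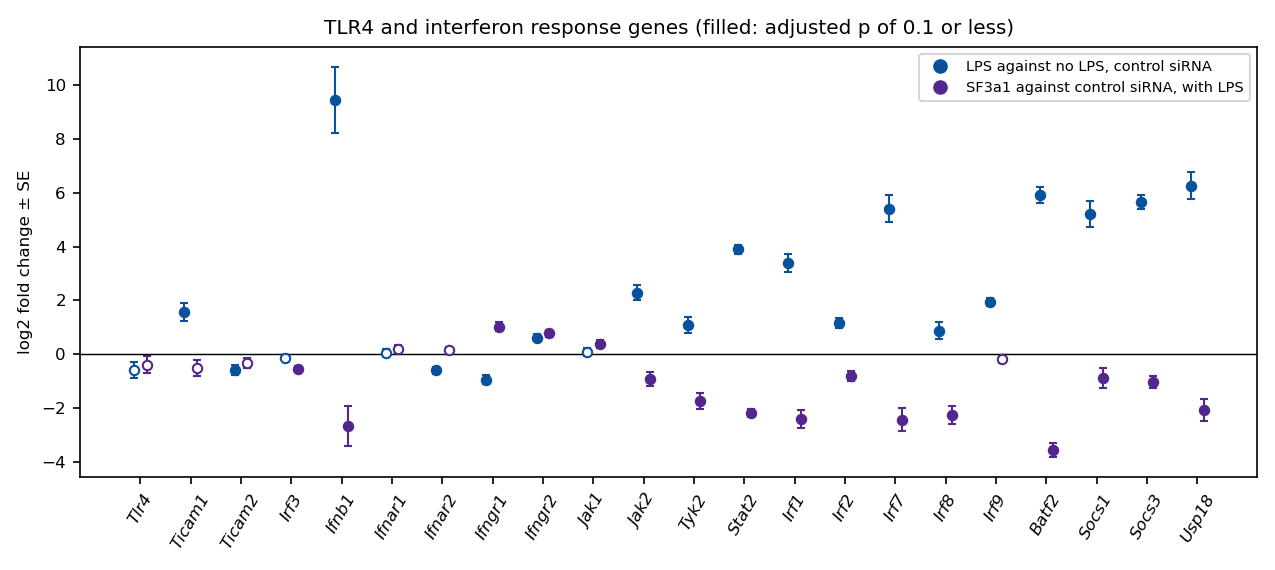
Log2 fold changes with SE (vertical axis) of TLR4 and interferon response genes for LPS with control siRNA and for SF3a1 siRNA against control siRNA with LPS, filled where the adjusted p was 0.1 or less. Stat2 to Usp18 all rise with LPS and lie below 0 with SF3a1 siRNA, with Batf2 lowest at -3.57 and Irf9 open, while Ifngr1, Ifngr2 and Jak1 are called above 0 with SF3a1 siRNA.

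Immunity-related GTPases (IRGs), which work with GBPs on pathogen vacuoles, were also higher with LPS and lower with SF3a1 siRNA. All 10 that were in the table rose with LPS (median log2 fold change 6.13) and all 10 were lower after SF3a1 inhibition with LPS (median -3.32, against -0.04 for all genes). These counts and medians are partly fixed by the filter. Gm4951, Tgtp1, Tgtp2 and Iigp1 passed it only through control siRNA with LPS, so that their rise and their fall were built in. Gm12250 passed only through libraries with LPS, so that its rise was built in. The largest falls were those of Gm4951 (-4.71), Tgtp2 (-4.34), Iigp1 (-3.97) and Tgtp1 (-3.81), the same 4 genes. The 3 IRGM regulators fell less, Irgm1 by 1.12, Irgm2 by 1.46 and Igtp by 1.71. Tgtp1 and Tgtp2 are near-identical copies and their counts are uncertain. Without LPS, 2 of the 10 were lower, Igtp (-0.81, adjusted p = 0.00629) and Irgm2 (-0.60, adjusted p = 0.0805), and 0 higher. That is close to the share of all genes called lower there, 20.1%, with 13.7% called higher. After SF3a1 inhibition LPS raised 8 of the 10, and the interaction called Ifi47 (-2.40), Gm5431 (-2.11) and Igtp (-0.90). Across all genes tested, 6.6% were called higher by LPS after SF3a1 inhibition and 1.94% lower in the interaction. With the replicate block, Irgm1 and Irgm2 were also called in the interaction (both -0.89) and Ifi47 as lower without LPS (-0.54).

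Of 10 inflammasome genes, in whose activation GBPs take part, 9 passed the filter. With LPS 7 rose and 1 fell, and 6 were lower and 1 higher after SF3a1 inhibition with LPS (median -1.20). Across all genes tested, 13.8% were called higher and 18.3% lower with LPS, and 18.4% higher and 20.4% lower after SF3a1 inhibition with LPS. Il1b passed the filter through libraries with LPS, so that its rise with LPS was built in. Casp4 fell by 1.98 (adjusted p = 4.79e-05), Il18 by 1.95 (adjusted p = 0.0007), Il1b by 1.66 (adjusted p = 0.00237) and Casp1 by 1.24 (adjusted p = 0.00311). Gsdmd, which encodes the pore-forming gasdermin D, rose by 0.44 (adjusted p = 0.0374). Pycard, the adaptor ASC that RAW264.7 cells are known to lack, was at 0.0452 CPM or less in each group mean. Without LPS, Il1b (1.64) and Gsdmd (0.39) were higher and Il18 (-0.90) lower, where 13.7% of all genes were called higher and 20.1% lower. After SF3a1 inhibition LPS raised 5 and lowered 1 of the 9, and the interaction called Il1b (-3.31) and Casp4 (-1.83). Of all genes, 6.6% were called higher and 4.06% lower by LPS after SF3a1 inhibition, and 1.94% lower in the interaction. The blocked interaction called 5 of the 9, all lower, and with the block SF3a1 inhibition in the presence of LPS raised 3, Nlrc4 (0.70) and Nek7 (0.27) besides Gsdmd. The block also added Nlrc4 as higher without LPS (1.23) and Casp1 as raised by LPS after SF3a1 inhibition (0.66).

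Genes for 2 processes that GBPs depend on, prenylation and ATG8 conjugation, were also listed. Of 7 prenylation genes tested, LPS lowered 1, Gdi2 (-0.44), and SF3a1 inhibition with LPS raised 3, Icmt (1.21), Fnta (0.50) and Zmpste24 (0.39). Without LPS, Icmt and Zmpste24 were higher. Of 11 genes of ATG8 conjugation, which directs GBPs to vacuoles, LPS raised 1, Gabarapl1, by 0.60 with control siRNA and by 0.58 with SF3a1 siRNA. SF3a1 inhibition lowered Atg3 (-1.31 with LPS and -1.29 without) and Atg4b (-0.46 and -0.45), and raised 6 with LPS and 5 without, among them Gabarapl1 (0.83 and 0.85) and Gabarap (0.75 and 0.70). With LPS, SF3a1 inhibition thus changed 8 of 11 ATG8 conjugation genes and 3 of 7 prenylation genes, where 38.8% of all genes were called. For SF3a1 inhibition without LPS 33.8% of all genes were called, and for LPS with control siRNA 32.1%. In the interaction edgeR called 0 of either list. With the replicate block, SF3a1 inhibition also lowered Fntb (-0.47 with LPS and -0.45 without) and raised Pggt1b (0.30 and 0.31), so that 4 prenylation genes were higher and 1 lower with LPS and 3 higher and 1 lower without. Of the ATG8 conjugation genes, blocked values gave 7 higher and 3 lower after SF3a1 inhibition with LPS, Map1lc3a (0.43) and Atg7 (-0.35) being added, and 6 higher and 2 lower without LPS, Map1lc3b (0.41) being added. LPS then raised 3 and lowered 2 of them with control siRNA, and with SF3a1 siRNA it raised 1 and lowered 1, Atg7 (-0.45).

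Neighbouring genes outside the family were also listed. The 3 nearest tested genes on each side of each cluster were 12 in all. LPS with control siRNA lowered 2 of them and raised 1, where 18.3% of all genes were called lower and 13.8% higher. SF3a1 inhibition raised 4 and lowered 0 both with and without LPS. Of all genes, 18.4% were called higher and 20.4% lower with LPS, and 13.7% higher and 20.1% lower without LPS. With the replicate block LPS lowered 3 and raised 2 of the 12, and SF3a1 inhibition with LPS raised 5. Kyat3, 63 kb beyond Gbp2, gave 0.05 ± 0.22 with LPS and 0.05 ± 0.22 with SF3a1 siRNA in the presence of LPS. Lrrc8b, 69.3 kb beyond the chromosome 5 cluster, fell by 1.65 with LPS (adjusted p = 0.0006332) and rose by 1.41 with SF3a1 siRNA and LPS (adjusted p = 0.001974). Lrrc8c beside it fell by 1.84 and rose by 1.36, and both genes encode subunits of volume-regulated anion channels. The other genes were Pdlim5, Gtf2b, Pkn2 and, more distant at 3420 and 3590 kb, Rap1gds1 and Tspan5 on chromosome 3 and D930016D06Rik, Gm8258, Zfp951 and Lrrc8d on chromosome 5.

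Across the 12 libraries, the genes most like the family were chosen by Pearson correlation of log2 CPM with the mean standardized profile of the 8 members, among 13221 genes. Among the 10 highest were Ms4a4c (0.994), Trim30d (0.993), Trim30c (0.993), Casp4 (0.993), Herc6 (0.992), Gm12250 (0.992), Il6 (0.992), H2-T24 (0.992) and Apol9b (0.991). The libraries share the large step with LPS, so high values are common, and 1% of the genes exceeded 0.965. Between pairs of members the correlation was 0.796 to 0.995 (median 0.964, 28 pairs). Within the 6 libraries with LPS, where the points differ by siRNA, the nearest were Xrn2 (0.998), Gpt2, Ndufs3, Hap1, Herc6, 0610030E20Rik, Ifi44, Ttll5, Pnpt1 and Fcgr4 (0.996), and 1% of the genes exceeded 0.982 there. These are descriptions over few libraries, with Herc6 in both lists.

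Markers of other cell types were looked for in all libraries. The 5 fibroblast and 5 epithelial markers summed to at most 0.342 CPM in any library, and none passed the filter. Of 6 T cell markers, Cd8a was at 0 in every library and Cd3e, Cd3d, Cd3g and Cd4 were each at 0.0463 CPM or less in every group mean, while Lck was at 2.26, 12.1, 2.77 and 4.74 CPM in the means of control siRNA without and with LPS and SF3a1 siRNA without and with LPS. Lck rose with LPS (2.43, adjusted p = 4.46e-05) and was lower with SF3a1 siRNA and LPS (-1.35, adjusted p = 0.00277). The 5 B cell markers summed to 0.672 ± 0.0794 CPM (SD, n = 3) with control siRNA and LPS, mostly Pax5, and to 0.25 ± 0.26 CPM or less in each other group. Of the 10 macrophage markers, 7 rose and 1 fell with LPS, and with SF3a1 siRNA and LPS 2 were higher and 4 lower. Across all genes tested, 13.8% were called higher and 18.3% lower with LPS. With SF3a1 siRNA and LPS 18.4% were called higher and 20.4% lower, and 13.7% were called higher with SF3a1 siRNA without LPS. The markers lower with SF3a1 siRNA and LPS were Fcgr1 (-3.20), Cd52 (-2.24), Mpeg1 (-1.29) and Adgre1 (-0.71). When the replicate number was blocked, Cd14 (-0.47) and Itgam (-0.67) were called lower as well and Cd68 (0.22) higher, and without LPS 4 were higher in place of 2. Summed macrophage markers were 14060 ± 1036 CPM with control siRNA and LPS and 14570 ± 1992 CPM with SF3a1 siRNA and LPS.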

How the data were processed

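RNA of 12 RAW264.7 cultures was sequenced by the authors from one end on the Ion Proton, aligned to mm10 with GSNAP and counted with HTSeq on Ensembl genes and on exon bins. The deposited values are counts without normalization, 12746019 to 41091887 per library on genes, with 17.75 to 27.2% of reads outside annotated genes and 0.431 to 0.53% ambiguous between genes, both left out here. Intervals on counts are 95% and cover counting error only.

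Groups follow the labels. Gene counts were fitted with edgeR 4.0.16 (quasi-likelihood, TMM, filterByExpr, R 4.3.3) over all 12 libraries and p-values were adjusted by Benjamini-Hochberg over 14983 genes, with calls at 0.1. Exon bins were tested with diffSpliceDGE in 11 libraries, without control siRNA with LPS replicate 3, whose bins were not used here. Steps were tested on simulated data. No authors' comparison columns were used. Sequence words of 60 bases came from GENCODE vM21 transcripts, and summaries used Python 3.11.15.

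Alternatives were DESeq2 1.42.0 size factors and Wald test, no filter, only the libraries compared, limma 3.58.1, a lower bin filter, the replicate block and leaving out libraries. The correlation of deviations from group means was 0.14 to 0.60 in 18 of 18 same-numbered pairs of libraries. In the 36 differently numbered pairs it was -0.52 to 0.35 (median -0.31), and 10 of these exceeded 0.1. Replicates 2 and 3 were less clearly paired. For instance, control siRNA without LPS replicate 3 gave 0.35 with SF3a1 siRNA with LPS replicate 2 and 0.14 with its replicate 3. Whether the numbers pair all samples is thus uncertain, and blocked values stand beside results they change. For lists and neighbours they were added after seeing the data. No 2 libraries looked like a repeated deposit.

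Members, lists and rules were chosen with earlier results of these data known. Named were the 8 members, other Gbp genes, per list up to 4 called genes with the largest changes, 3 tested genes beside each cluster and the 10 genes most like the members; others were chosen after their values were seen. The values of 1 listed gene are not reported here, though counts and medians include it.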

Additional observations from a re-analysis of the deposited data

Results flagged for a closer look

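The SF3a1 effect differed between the presence and absence of LPS, by a test of the difference itself, for Gbp3 (-3.43 on the log2 scale, adjusted p = 0.02318) and Gbp7 (-2.29, adjusted p = 0.08274). Both values are the log2 change with LPS minus that without, from edgeR's interaction term over the 12 libraries. With LPS the siRNA groups did not overlap for either gene and without LPS they overlapped for both, although Gbp7 was lower with SF3a1 siRNA in 3 of 3 same-numbered pairs there too. Leaving out replicate 1 of SF3a1 siRNA without LPS ended both calls (Gbp3 -2.96, adjusted p = 0.113; Gbp7 -2.21, adjusted p = 0.217), and that of Gbp7 was also lost without any of 7 other single libraries.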

How the results depend on the processing

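All 8 members kept their direction and their call for LPS with control siRNA and for SF3a1 inhibition with LPS in the 96 member values recomputed for each. With the main filter the rise of 6 members and the fall of Gbp4 and Gbp8 were built in, as given above. For LPS after SF3a1 inhibition 7 members were called in every alternative except the fit of only the 6 libraries compared. There 6 passed the filter and all 6 were called. For SF3a1 inhibition without LPS, 1 member was called without the filter (Gbp2, -1.62) and with DESeq2 (Gbp2, -1.63), and 0 to 1 when single libraries were left out: Gbp2 without replicate 1 of control siRNA without LPS (-1.96, adjusted p = 0.0786) and Gbp4 without replicate 2 of SF3a1 siRNA without LPS (-4.34, adjusted p = 0.0844). In that comparison log2 fold changes ran from -1.07 to 0.38 for Gbp9 and from -1.16 to 0.52 for Gbp5, turning without replicate 2 of control siRNA without LPS, and from -0.07 to 0.91 for Gbp3, turning without replicate 1 of SF3a1 siRNA without LPS. There too, Gbp2 ran from -2.44 (without replicate 1 of every group) to -0.83 (without replicate 2 of control siRNA), Gbp4 from -4.34 to -1.28, Gbp6 from -3.62 (without replicate 3 of SF3a1 siRNA) to -0.54 (without replicate 2 of control siRNA) and Gbp8 from 0.43 to 2.94 (without replicate 3 of control siRNA). Without replicate 1 of every group Gbp3 was at -0.52, Gbp4 at -1.28 and Gbp8 at 0.43.

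Sizes also moved where a call held. For SF3a1 inhibition with LPS Gbp8 went from -3.30 to -7.25 without replicate 3 of SF3a1 siRNA with LPS and to -2.50 without replicate 1 of every group, and Gbp4 from -3.17 to -3.93 without replicate 1 of SF3a1 siRNA with LPS. For LPS with control siRNA, leaving out replicate 2 of control siRNA without LPS gave the highest value of Gbp2 (9.27 in a range from 8.10), Gbp5 (11.48, from 9.89), Gbp6 (7.94, from 6.64) and Gbp9 (7.09, from 5.73), and leaving out its replicate 3 that of Gbp8 (7.21, from 4.78). For LPS after SF3a1 inhibition, leaving out replicate 2 of SF3a1 siRNA without LPS gave the highest value of Gbp4 (6.74, from 3.07), Gbp5 (8.10, from 6.78) and Gbp9 (4.87, from 3.55), and leaving out its replicate 3 that of Gbp6 (7.44, from 4.23). The cause of these changes was not tested. Without LPS every member had at most 78 counts over the 3 libraries of a group.

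In the interaction 5 members were called without the filter, 1 without replicate 1 of every group and 0 to 2 without single libraries, when Gbp4 ran from -1.72 to 1.18, highest without replicate 2 of SF3a1 siRNA without LPS, and Gbp6 from -2.69 to 0.35, highest without its replicate 3. Over all alternatives the interaction values ran from -2.74 to -1.39 for Gbp2, -3.90 to -2.83 for Gbp3, -2.56 to 1.18 for Gbp4, -4.17 to -2.52 for Gbp5, -8.47 to -2.93 for Gbp8 and -2.88 to -1.45 for Gbp9. For LPS after SF3a1 inhibition Gbp8 ran from -2.91 to 1.79 without single libraries, lowest without replicate 3 of SF3a1 siRNA with LPS, and was 1.85 without replicate 1 of every group. Genes called in the interaction were 930 without the filter, 919 with DESeq2, 1012 without replicate 1 of every group and 273 to 711 without single libraries (lowest without replicate 3 of SF3a1 siRNA without LPS). For LPS after SF3a1 inhibition they were 1050 to 1509 without single libraries. Genes with a called exon bin, without single libraries, were 23 to 60 for LPS with control siRNA, 382 to 517 and 83 to 603 for SF3a1 inhibition without and with LPS, and 7 to 11 for LPS after SF3a1 inhibition. The lowest of the values for LPS with control siRNA and for SF3a1 inhibition with LPS, 23 and 83, came without replicate 1 of control siRNA with LPS. Where a library of control siRNA with LPS is left out, its group keeps 1 library, which is assumed to vary like the others.

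With the replicate number as a block, 3115 genes were called for LPS after SF3a1 inhibition and 1756 in the interaction, where Gbp5 was called too (-3.37, adjusted p = 0.0867). Genes with a called exon bin were then 129, 1217, 1102 and 35 in the order above. The replicate block changed no other call of a member, ended 0 calls of listed genes and added some, among them Gbp2b for SF3a1 inhibition without LPS (-1.73, adjusted p = 0.0267).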
